A study of Mus musculus with 4 samples.

Results

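Wild-type E14tg2a mouse embryonic stem cells were compared at d2 and d0, on 1 array each. E14tg2a is an established line of pluripotent cells, grown here in serum with LIF, the cytokine that holds such cells in self-renewal. The series title names overexpression of PRDM14 in wild-type, Suz12-knockout and Ctbp1/2 double-knockout cells. No label gives the start or the means of overexpression, so d0 and d2 are read as days 0 and 2 of it, and time in culture cannot be told apart from it. The wild-type (WT) arrays are 2 of the 4 used here. The other 2, from Ctbp1/2 double-knockout (DKO) cells at d0 and d2, serve as values set beside them, and Suz12-knockout arrays were not analysed here. All 4 arrays are labelled strip 2.

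Every value is on the scale of the deposited table, read as log2, on which a difference of 1 is 2-fold. That base is assumed, since the table does not state it. Differences are d2 minus d0. Genes were named from probe sets with exactly 1 symbol, and the brightest probe set over the 4 arrays stood for each gene. Of 22180 such genes, 1159 (5.23%) had a mean of at least 1 over the WT arrays, and these are described. Just inside that limit lay Gm11793, Rps7 and Gm20556, with means of 1.0003, 1.0004 and 1.0005, and just outside it Sertad3, Gpr135 and Olfr1109, each between 0.99992 and 0.99999. Both WT values were at least 1 for 844 genes, while 155 reached 1 at d0 alone and 160 at d2 alone. The last 2 kinds lie on either side of the limit on the WT arrays, and a difference is built into how they were counted. With 1 array per group there is no spread between replicates, so no difference below was tested.

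PRDM14 is a PR-domain protein that binds DNA and recruits corepressors. It holds mouse embryonic stem cells in the naive state, the pluripotent state of the blastocyst, by repressing FGF signalling and de novo DNA methyltransferases. Naive cells express Pou5f1, Sox2, Nanog, Esrrb and Zfp42, and the enzyme activity of alkaline phosphatase is a classical stain for them.

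The cell type was first read from its markers. Of 12 embryonic stem cell markers none reached a mean of 1 on the WT arrays, with means between 0.20 for Tdgf1 and 0.84 for Dppa5a and a median of 0.49. Their summed level was 5.71 at d0 and 6.28 at d2. The median level was 0.54 for 8 fibroblast markers, none of which reached 1 by the probe set chosen for it, 0.46 for 7 of extraembryonic endoderm, likewise none, 0.49 for 6 of trophoblast, of which Gata3 and Krt8 reached it, and 0.27 for 5 of lymphoid cells, of which Cd79b did. A second probe set of the fibroblast marker Vim had a mean of 1.13. The labelled cell type was therefore not visible in these markers. Prdm14 itself measured 0.34 at d0 and 0.42 at d2, so the overexpression could not be read from its own probe set either. Ctbp1 measured 0.63 at d0 and 0.32 at d2 in WT and 0.56 and 0.42 in DKO. Ctbp2 measured 0.55 and 0.46 in WT and 0.55 and 0.42 in DKO. The double knockout was thus not visible in the probe sets of these genes. The directions below rest on the labels of the arrays.

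Few genes of the clearer signal range differed by 2-fold between d2 and d0. Of the 1159 genes, 19 were higher at d2 (1.64%) and 15 lower (1.29%), together 2.93%. Of all 22180 genes 0.176% were higher and 0.144% lower, together 0.320%. The largest positive differences belonged to Mir483, the immunoglobulin constant region gene Ighg3, the salivary protein gene Dcpp2 and Mir128-2. The largest negative differences belonged to the odorant receptor genes Olfr417 and Olfr1337 and to Mir339. Among the 844 genes at or above 1 on both arrays, 9 were higher and 8 lower by 2-fold, or 2.01%.

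The differences of the 1159 genes were centred on 0, and how far the authors' processing set that centre was not tested. Their median was 0.0025, 585 were above 0 and 572 below, and the 5th and 95th percentiles were -0.62 and 0.65. In 83.0% the WT arrays differed by less than 0.5. The robust SD of the difference, taken over genes and not over replicates, was 0.33 for the 934 genes with means from 1 to 2, 0.39 for the 167 from 2 to 4, 0.44 for the 40 from 4 to 6 and 0.27 for the 18 above 6. Genes past 2-fold made up 2.03%, 7.78%, 2.50% and 5.56% of these classes. Across the 1159 genes the correlation of the WT arrays was 0.931 (Pearson) and 0.574 (Spearman). Both arrays share the strip and the authors' processing, and genes are not independent replicates.

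**Figure D1:**
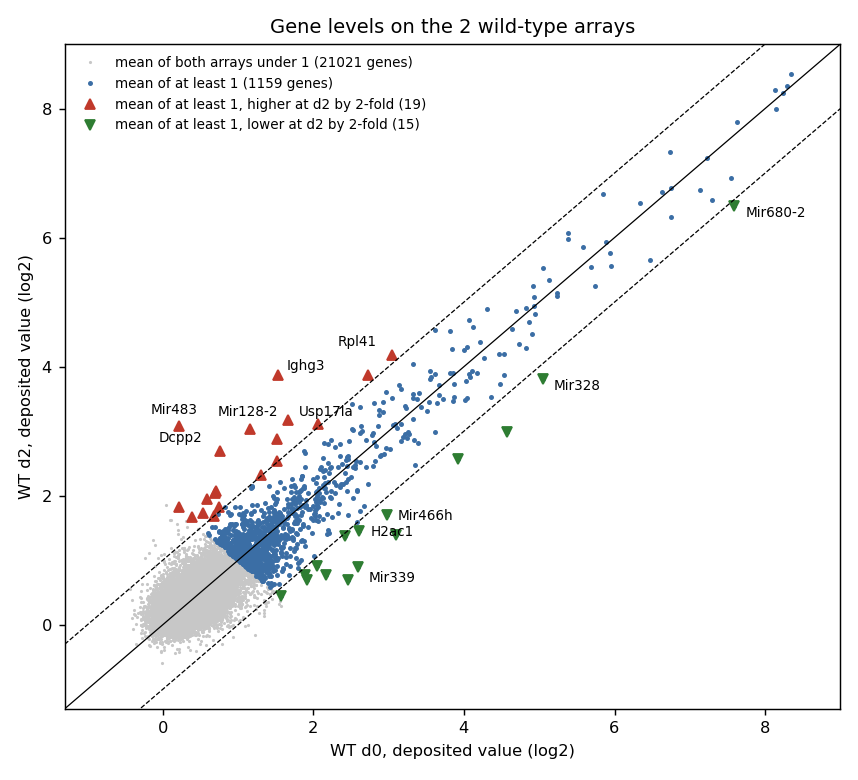
Deposited log2 value on the WT d0 array (x axis) against the WT d2 array (y axis), 1 point per gene, with the line of equality and dashed lines at 2-fold. The 1159 genes with a mean of at least 1 follow the line of equality, and 19 lie above and 15 below the dashed lines.

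Ighg3, which encodes the constant region of an immunoglobulin G heavy chain, measured 1.53 at d0 and 3.87 at d2. The difference of 2.34 is 5.05-fold. The DKO arrays measured 1.71 at d0 and 3.85 at d2, so the d0 values lay close together and so did the d2 values. A second Ighg3 probe set measured 0.31 and 0.39 on the WT arrays, a difference of 0.08, and the mean over both probe sets differed by 1.21. Of the lymphoid markers, the B-cell receptor genes Cd79a and Cd79b differed by -0.28 and 0.49, the B-cell gene Ms4a1 by 0.07 and Jchain, which joins immunoglobulin polymers, by 0.07. The summed level of the 5 lymphoid markers was 2.47 at d0 and 2.59 at d2, only Cd79b reached a mean of 1, and their part in the Ighg3 difference was not tested. Ighm, the constant region of the mu heavy chain, measured 4.73 and 4.35.

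Dcpp2, a secreted protein gene of salivary and reproductive glands, measured 0.77 at d0 and 2.69 at d2, a difference of 1.93 (3.80-fold). The DKO values went the other way, from 1.58 to 0.59, and WT d2 was the highest of the 4. Usp17la encodes a deubiquitinase of a family that includes genes transcribed in 2-cell-like cells, a rare state of embryonic stem cell cultures. It measured 1.67 and 3.18 in WT and 1.46 and 2.43 in DKO, so d2 was higher than d0 in both, by 1.51 and 0.97. Nkd1, a Dishevelled-binding inhibitor of WNT signalling, measured 0.60 and 1.95, a difference of 1.35 (2.55-fold), and 0.63 and 1.05 in DKO. Its WT d2 value stood above the other 3.

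Alpl, the tissue-nonspecific alkaline phosphatase, measured 1.31 at d0 and 2.32 at d2, a difference of 1.01. The DKO arrays measured 1.57 and 1.44, so WT d2 was the highest of the 4 and the other 3 lay close together. Its second probe set measured 0.32 and 0.33 and did not show the difference, and the mean of both gave 0.51. Swsap1 measured 0.69 and 2.05 in WT and 0.23 and 0.69 in DKO. Its second probe set differed by -0.33, and the mean of both by 0.51. Sprr2b, a component of the cornified envelope of skin, measured 0.68 and 1.69, a difference of 1.01, beside 0.76 and 0.63 in DKO.

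Rpl41, Rps15 and Cox5b, all higher by 2-fold at d2, belong to the ribosome and the respiratory chain. Rpl41 encodes a very small protein of the large ribosomal subunit and measured 3.04 and 4.18, a difference of 1.14. It has 5 probe sets, whose differences were 1.14, 0.73, -0.74, -0.23 and 0.56 and averaged 0.29, and the brighter pair shared the direction. Rps15, of the small subunit, has 1 probe set, which measured 2.06 and 3.11 in WT and 2.75 and 4.22 in DKO. Both d2 values lay above both d0 values. Cox5b, a nuclear-encoded subunit of cytochrome c oxidase, measured 0.39 and 1.67 in WT and 1.04 and 2.39 in DKO, while its second probe set differed by -0.57 in WT and the mean of both by 0.35.

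Without microRNA, small nucleolar RNA, receptor and predicted genes, the 20 largest positive differences held a further 10 genes, between 0.74 and 0.98 and so under 2-fold. They were Lce1h, a late cornified envelope gene (0.98), the chloride-proton exchanger gene Clcn4 (0.96), Bglap, which encodes osteocalcin (0.88), Chac1, a glutathione-degrading enzyme (0.86), and the cytokine gene Mif (0.86). The others were Prdm12, a PR-domain gene of sensory neurons (0.83), Ywhaz, the zeta member of the 14-3-3 phosphoprotein-binding proteins (0.82), Gmeb2 (0.78), Xlr3a (0.75) and the Golgi membrane protein gene Golm1 (0.74). Ywhaz was the brightest of these, at 5.85 on d0 and 6.67 on d2, beside 6.08 and 6.07 in DKO. Its other 2 probe sets differed by 0.36 and 0.14, and the mean of the 3 by 0.44.

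On the lower side, 4 genes other than microRNA, receptor and predicted genes passed 2-fold. H2ac1, a histone H2A gene, measured 2.61 at d0 and 1.45 at d2, a difference of -1.16, where DKO measured 1.80 and 1.69. Sez6l2, a neuronal membrane protein gene, measured 2.05 and 0.92 in WT and 0.95 and 0.68 in DKO. For both genes the WT d0 value was the one far from the other 3. The other 2 probe sets of Sez6l2 differed by -0.25 and -0.03, and the mean of the 3 by -0.47.

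Osgin1, a growth inhibitor gene of the oxidative stress response, measured 1.89 at d0 and 0.77 at d2 in WT and 1.17 and 0.21 in DKO, so it was lower at d2 in both, by 1.11 and 0.97. Serpina3i, of the serine protease inhibitors, measured 1.57 and 0.44 in WT and 0.15 and -0.41 in DKO. Its WT d0 value stood apart from the other 3. Without microRNA, small nucleolar RNA, receptor and predicted genes, the remaining 16 of the 20 largest negative differences lay between -0.98 and -0.75. They included Pramel20 (-0.98), Dazap2 (-0.94), Zfp747 (-0.86), Nubp2, of cytosolic iron-sulphur cluster assembly (-0.85), Aldh2, the mitochondrial aldehyde dehydrogenase (-0.84), the RNA helicase gene Ddx54 (-0.75) and Npr1, a natriuretic peptide receptor (-0.75). The second probe set of Aldh2 differed by -0.02 and that of Npr1 by 0.09, with means of both at -0.43 and -0.33. Rps12-ps24, a ribosomal protein pseudogene, was the brightest, at 6.47 and 5.66. The others were Nkpd1, Myo5c, Nxph3, Natd1, Rnf223, Bcl2a1c, Defa26 and Fbxw16.

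MicroRNA genes supplied 8 of the 34 genes past 2-fold. Of 66 microRNA genes with a mean of at least 1, 4 were higher and 4 lower at d2 (6.06% each way), or 12.1% together. Of 841 other named genes 10 were higher (1.19%) and 4 lower (0.476%), or 1.66% together. The microRNA genes were also brighter, with a median level of 1.96 against 1.24, and the shares were not matched for level. A microRNA is cut from a hairpin RNA, and bases 2 to 8 of the mature strand, the seed, pair with target messages. Mature sequences from RefSeq (GRCm38.p6) were at hand for 6 of the 8 genes. They are printed 5′ to 3′ with the seed in capitals, to show how their seeds compare.
miR-483-3p: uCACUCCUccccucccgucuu
miR-483-5p: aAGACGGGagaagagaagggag
miR-128-3p: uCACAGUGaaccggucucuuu
miR-128-2-5p: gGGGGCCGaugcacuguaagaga
miR-1191a: cAGUCUUAcuauguagcccua
miR-5103: uCAUCCGGgauccccugagg
miR-339-5p: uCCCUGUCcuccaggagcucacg
miR-339-3p: uGAGCGCCucggcgacagagccg
miR-680: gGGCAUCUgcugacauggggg

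The 9 mature sequences carry 9 different seeds. Mir483, whose hairpin lies at chr7:142654924-142654996 on the minus strand within Igf2, measured 0.22 at d0 and 3.08 at d2. Its difference of 2.86 (7.25-fold) was the largest of the 1159 genes. The DKO arrays measured 0.88 and 1.01, so the WT arrays lay on either side of them. Igf2, the growth factor gene that spans the hairpin, measured 0.43 on both WT arrays. Mir128-2, at chr9:112118636-112118711 on the minus strand within Arpp21, measured 1.16 and 3.04, beside 2.38 and 2.19 in DKO, and Arpp21 measured 0.36 and 0.15. Mir128-1, whose mature strands share both seeds, measured 0.06 and 0.01.

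Mir1191, at chr7:27205536-27205655 on the plus strand within BC024978, measured 2.73 at d0 and 3.87 at d2, and Mir5103, at chr1:34433121-34433199 on the minus strand, 1.51 and 2.55. In both the WT d2 value was the highest of the 4 arrays. Mir339, at chr5:139369650-139369745 on the minus strand within 3110082I17Rik, measured 2.59 and 0.89 in WT and 0.83 and 1.22 in DKO, so its d0 value in WT stood alone. The spanning gene measured 0.95 and 0.67. Mir680-2, at chrX:144297790-144297899 on the plus strand, was bright on every array, at 7.59 and 6.49 in WT and 6.54 and 7.19 in DKO. Mir680-1 and Mir680-3, which share the seed of miR-680, lay at 0.38 or below in their WT means.

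Mir328 and Mir466h were lower at d2 in both genotypes. Mir328 measured 5.05 and 3.81 in WT and 2.92 and 0.89 in DKO, and Mir466h 2.98 and 1.71 in WT and 2.55 and 0.20 in DKO. The differences were -1.25 in WT and -2.03 in DKO for Mir328, and -1.28 and -2.35 for Mir466h. Over the 66 microRNA genes the median difference was -0.05, with 31 above 0. The robust SD over these genes was 0.49, beside 0.33 for the 841 other named genes, likewise not matched for level. A probe set of a microRNA gene reads any RNA of its locus that was labelled, so precursor and mature forms cannot be told apart.

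**Figure D2:**
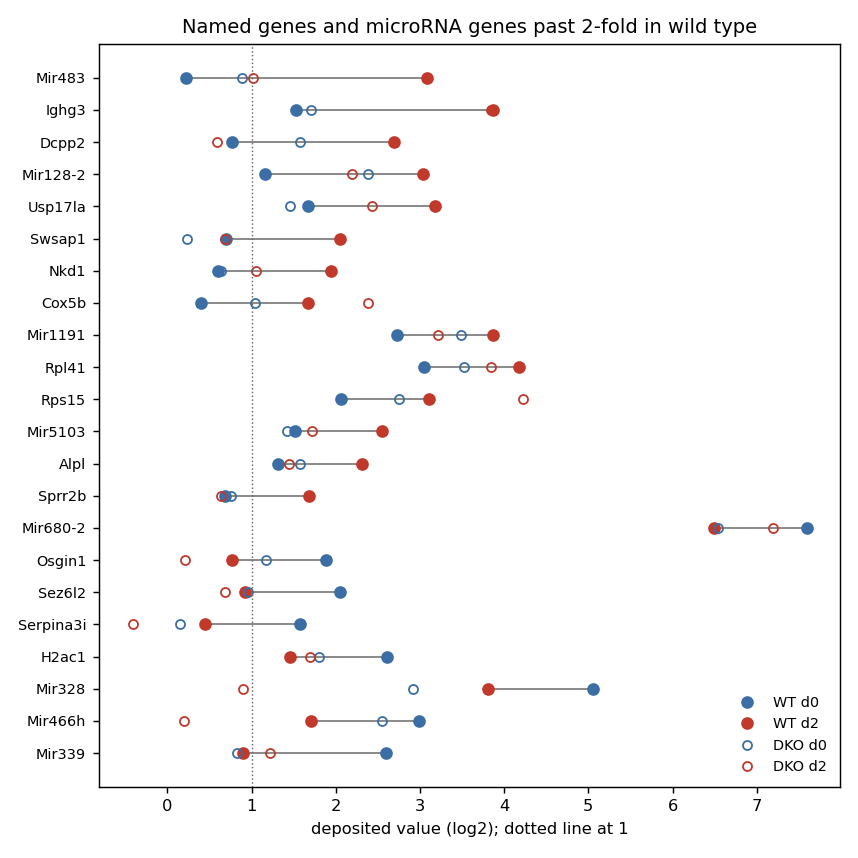
Deposited log2 values (x axis) of the 14 other named genes and 8 microRNA genes past 2-fold in wild type, 1 row per gene ordered by the WT difference, with filled points for WT, open points for DKO, blue for d0 and red for d2. Most higher genes have WT d2 as the rightmost point, and most lower genes have WT d0 there. The genes were chosen for their WT difference, which favours these positions.

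Of the 19 genes higher at d2, WT d2 was the highest of the 4 arrays in 17, and WT d0 the lowest in 11. Of the 15 lower genes, WT d0 was the highest of the 4 in 14 and WT d2 the lowest in 5. All 34 were chosen for a WT difference of at least 1, which favours such ranks, and the ranks of other genes were not counted. The DKO difference had the sign of the WT difference in 25 of the 34 and the opposite sign in 9. It was within 0.5 of 0 in 19. The share of all 1159 genes with the same sign, or within 0.5, was not counted, so these counts have no background beside them. In DKO 6 of the 34 passed 2-fold the same way, namely Ighg3, Rps15, Cox5b, 1700029P11Rik, Mir328 and Mir466h, and none the other way. The background of the DKO comparison was 3.02% higher and 3.36% lower, together 6.38%, among the same 1159 genes, whose DKO differences had a robust SD of 0.40 beside 0.34 in WT. 1700029P11Rik, chosen after its values were seen, measured 1.52 and 2.88 in WT and 0.96 and 2.31 in DKO. Across the 1159 genes the WT and DKO differences correlated with 0.086 (Pearson) and 0.035 (Spearman).

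**Figure D3:**
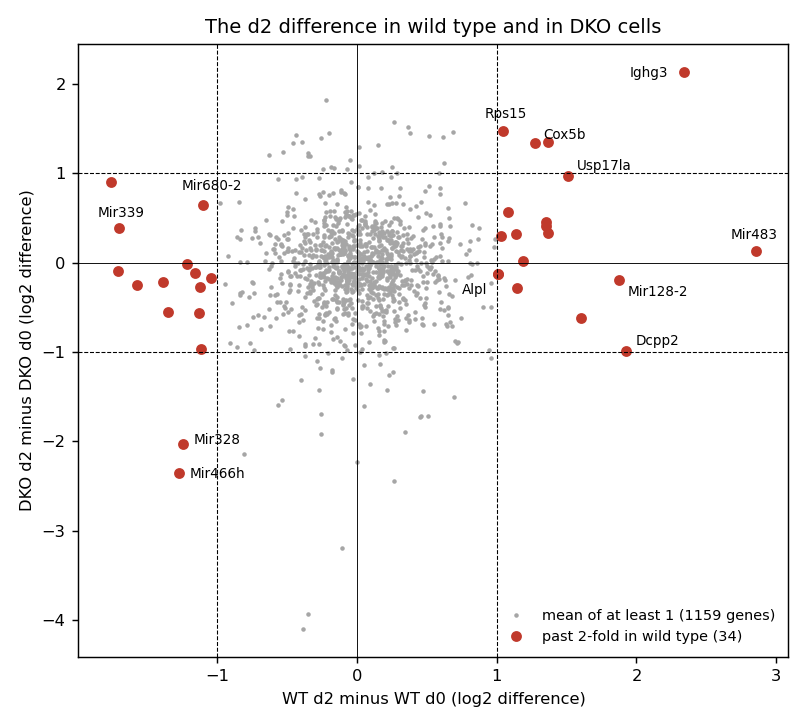
The d2 minus d0 log2 difference in WT (x axis) against that in DKO (y axis) for the 1159 genes with a WT mean of at least 1 (grey) and the 34 past 2-fold in WT (red), with dashed lines at 2-fold. Of the red points 25 share their sign on both axes, and 6 lie past both dashed lines. The share of the 1159 genes with the same sign was not counted.

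Genes of pluripotency, lineage and signalling lay mostly below the level of 1. Of 11 core pluripotency genes and 12 PRC2 genes none reached it. PRC2 is the complex that methylates histone H3 at lysine 27. Of 17 naive genes 3 did, with Dppa3, a maternal-effect and germ cell factor, at 2.00 and 1.72, the nuclear receptor gene Nr5a2 at 1.10 and 1.29 and the homeobox gene Gbx2 at 0.96 and 1.09. Of 8 genes of DNA methylation only Dnmt3b, a de novo methyltransferase, reached it, at 1.36 and 1.15. Below it, Dnmt1, the maintenance methyltransferase, measured 0.47 and 1.21. Over all 8 genes of this list 2 were higher and 6 lower, with a median of -0.07. Of 19 genes of FGF receptors and ERK targets 2 reached a mean of 1. The receptor gene Fgfr1 measured 1.39 and 0.90 and the ETS factor gene Etv5 1.38 and 1.57. Fgfr1 reached 1 at d0 alone, so its lower d2 value is built into its inclusion. Over all 19 genes 8 were higher and 11 lower, with a median of -0.09. No member of these 5 lists passed 2-fold at any level, where 0.320% of all genes did, so a count of 0 in lists of this size sets them apart from no other genes.

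In the 2-cell-like list 2 of 21 genes reached a mean of 1. Besides Usp17la these were Trim43c, of a tripartite motif family of preimplantation embryos, at 4.48 and 3.73. Zscan4a, a telomere factor of the 2-cell state, lay just below with 1.44 and 0.55. Tcstv1 measured 1.22 and 0.31 and Zfp352 0.003 and 0.79, so the members named here did not share a direction. Over all 21 genes of this list 11 were higher and 10 lower, with a median of 0.02. The WNT list held Nkd1 as its 1 gene at this level, and over all 15 WNT genes the median difference was -0.02. The target gene Sp5 differed by 0.52 and the secreted inhibitor gene Dkk1 by -0.39. The primitive-streak gene Gsc measured 2.44 and 2.55, the neuronal tubulin gene Tubb3 1.03 and 1.70 and Pou3f1, a POU factor of the formative state, 1.13 and 1.02. The paraxial mesoderm gene Tbx6 differed by -0.23. None of the 10 endoderm genes reached 1.

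Of the 30 gene lists, 11 held 3 or more genes at this level, most of them lists of abundant housekeeping genes. The median differences ran from -0.38 for 5 histone genes to 0.16 for 17 small nucleolar RNA genes, beside 0.0025 for all 1159 genes. Of the 19 cytosolic ribosomal protein genes 11 were higher and 8 lower, with a median of 0.06, and 2 passed 2-fold upward, beside the background of 1.64%. Rpl35 (0.54), Rps4x (0.54), Rpl7a (-0.48) and Rps9 (-0.44) had the next largest differences. Of 13 oxidative phosphorylation genes 8 were higher, with a median of 0.12. Besides ND6, those encoded in the mitochondrial genome were as follows. ND2 measured 2.20 and 2.80, ND5 2.73 and 2.19, ND4 4.02 and 3.78, ND1 2.50 and 2.29, ND4L 2.45 and 2.46, CYTB 2.12 and 1.98 and COX1 1.32 and 1.44. These transcripts, which are cut from shared precursors, thus differed in both directions.

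Of the 5 histone genes 4 were lower, with H4c12 at 1.35 and 0.76, H2bc14 at 1.40 and 1.01, the variant gene H2az1 at 1.49 and 1.36 and H2ac1 as above, while H2ac10 differed by 0.12. Over all 38 histone genes measured, 17 were higher and 21 lower, with a median of -0.10. Of 19 cytoskeleton genes 8 were higher and 11 lower (median -0.09), with the myosin light chain gene Myl9 at -0.73 and the skeletal actin gene Acta1 at -0.47. Of 5 translation factor genes Eif3b differed by 0.62, Eif4a1 by -0.59 and Eif4a2 by -0.39, and the list median was -0.23. Taken as the mean over its probe sets, Eif4a2 differed by 0.04, and the list median on that basis was 0.01. Of 6 genes of splicing and hnRNP proteins 3 were higher, with Hnrnpk at 0.60 and Sf3a2 at -0.54. In this paragraph H4c12, Myl9 and Sf3a2 reached 1 at d0 alone, and Eif3b and Hnrnpk at d2 alone. The direction of their differences is therefore built into their inclusion.

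Of 17 small nucleolar RNA genes, which guide the modification of ribosomal RNA, 11 were higher and none passed 2-fold. Snord8 measured 5.38 and 6.07, Snord88c 2.81 and 3.44 and Snord23 3.14 and 3.72, while Snord11 measured 1.46 and 0.91. The 4 mitochondrial ribosomal protein genes lay between -0.31 and 0.33. The 3 genes of the metallothionein and redox list at this level were all lower. Osgin1 measured as above, the superoxide dismutase gene Sod1 2.88 and 2.61 and the lipid peroxidase gene Gpx4 1.20 and 0.96. Osgin1 and Gpx4 reached 1 at d0 alone, so a lower d2 value is built into their inclusion. Over all 17 genes of this list measured, 7 were higher and 10 lower, with a median of -0.11. In the remaining lists the heat shock cognate gene Hspa8 measured 6.64 and 6.71, the glycolytic gene Gapdh 5.94 and 5.76, the proteasome gene Psmb1 3.22 and 2.96, the antiapoptotic gene Mcl1 0.83 and 1.43 and the small nuclear RNA gene Rn7sk 5.95 and 5.56. Gapdh probe sets disagreed in sign, and their mean differed by 0.17. No gene of the proliferation list or of the list of imprinted and long noncoding genes reached 1.

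**Figure D4:**
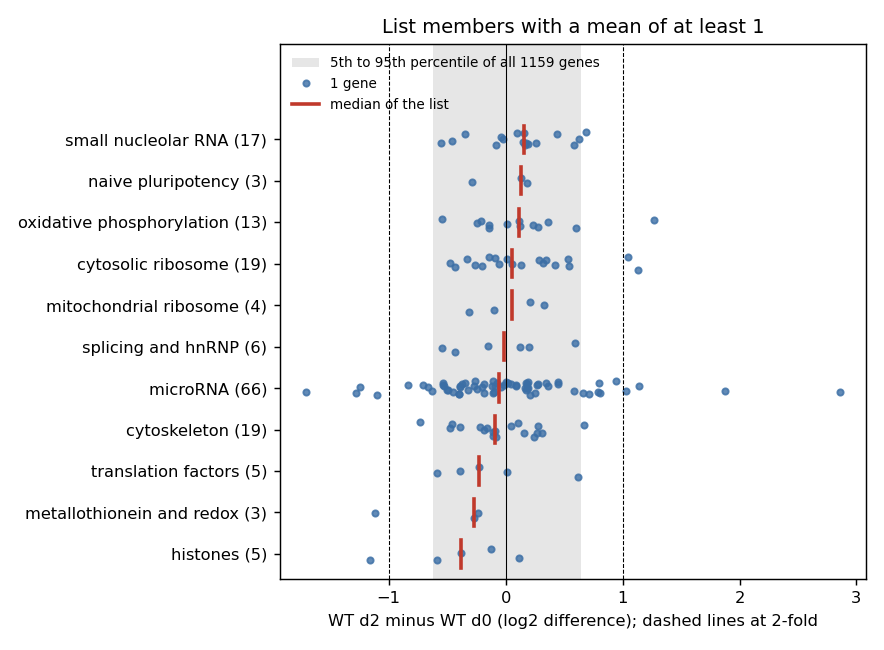
WT d2 minus d0 log2 difference (x axis) of list members with a mean of at least 1, 1 point per gene, for the 11 lists with 3 or more such genes (number in brackets), with the list median in red and the 5th to 95th percentile of all 1159 genes in grey. The medians run from -0.38 to 0.16. The grey band describes single genes and is no yardstick for a median.

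Of the 12 brightest genes 7 differed by less than 0.20 and 5 by more. Those 5 were Mir680-2 (-1.10), Mir187 (-0.71), LOC100039029 (-0.62), 6820431F20Rik (0.59) and Eif4a2 (-0.39). Among the others, ND6, a mitochondrial subunit of complex I, measured 8.14 and 7.99, Mir5112 8.34 and 8.54, Mettl7a3 8.29 and 8.34 and the secretoglobin gene Scgb1b3 8.13 and 8.29. Olfr1454, an odorant receptor gene, measured 8.23 and 8.24 and the pheromone receptor gene Vmn1r208 7.63 and 7.80. Both belong to receptor families of sensory neurons. Of the 48 olfactory and vomeronasal receptor genes with a mean of at least 1, 3 were higher and 4 lower by 2-fold (6.25% and 8.33%, together 14.6%). Olfr417 measured 2.46 and 0.69 and Olfr1337 3.10 and 1.39. Both were chosen for mention after their values were seen. Of 187 predicted or provisional genes 2 were higher (1.07%) and 3 lower (1.60%), together 2.67%.

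Where a gene had more than 1 probe set at a mean of at least 1, the probe sets could be set against each other. There were 17 such genes. In 2 of them, Gm20822 and Gm7969, both probe sets gave identical differences. In the other 15 the brightest and the next brightest probe set differed in the same direction in 9, and the median gap between their differences was 0.22. Rpl41 was the 1 gene of these past 2-fold. The largest gap was that of Vmn1r208, whose probe sets differed by 0.17 and 1.05. Probe sets of a gene can share probes or read different transcripts, so they are not replicates.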

How the data were processed

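Total RNA was labelled with biotin by a whole-transcript kit, per the labels' protocols, and read on microarrays. The deposited table holds 1 value per probe set, taken as log2 and made by the authors with RMA, per the submitters' processing notes. No version is named there. Most of the 41345 values per array lie between 0 and 1, unusual for RMA, and the log base is not written. The median was 0.35 at d0 and 0.37 at d2 in WT cells, and 0.36 and 0.41 in DKO cells. The table was used without further scaling.

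Of the probe sets 23521 had 1 symbol in the platform annotation, updated by Entrez number through RefSeq (GRCm38.p6) for 23328. Of 22180 genes 1082 had several probe sets. Robust SDs are scaled median absolute deviations. The counting was tested on simulated data with planted differences and a spread smaller than that of the real arrays. That checks the counting alone and gives no error rate. Alternative scalings used limma 3.58.1 in R 4.3.3, the rest Python 3.11.15 with pandas 2.3.3, numpy 2.4.6 and matplotlib 3.10.9.

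Members and 30 gene lists were chosen with earlier results of these data known. The rule for named genes took, at a mean of at least 1, the 20 largest differences each way, 10 microRNA and 6 small nucleolar RNA genes, the 12 brightest genes and up to 6 members per list; at any level it took the design genes and up to 4 members of each regulator list. Predicted, receptor, microRNA and small nucleolar RNA genes were left out of the 20 largest differences, and the last 2 kinds were ranked apart.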

Additional observations from a re-analysis of the deposited data

Results flagged for a closer look

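Of the 34 genes past 2-fold in WT cells, 9 differed in the opposite direction on the DKO arrays, and 7 of these are set out here. The others were the receptor genes Olfr417 (-1.76 in WT, 0.90 in DKO) and Olfr1269 (1.60 and -0.62). The share of opposite signs among all 1159 genes was not counted. With 1 array per group the difference between genotypes was not tested. Dcpp2 differed by 1.93 in WT and by -0.99 in DKO, the widest contrast of the 7. Mir128-2 differed by 1.87 in WT and -0.19 in DKO, Mir1191 by 1.14 and -0.28, Alpl by 1.01 and -0.13, and Sprr2b by 1.01 and -0.13. The DKO differences of these 4, not their levels, lay near 0. For Mir680-2 the WT difference was -1.10 and the DKO difference 0.65, and for Mir339 they were -1.70 and 0.39.

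Probe sets without a gene symbol lie outside the comparisons. Of 2410 with a WT mean of at least 1, 320 were higher at d2 by 2-fold and 336 lower, or 27.2% in all, against 2.93% of the named genes at that level. Their differences ran from -8.33 to 6.77. They were not named or analysed further here, and the 27.2% and 2.93% were not matched for level or kind of probe set.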

How the results depend on the processing

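The 34 genes past 2-fold (19 higher and 15 lower) numbered 32 to 36 under equal array medians, quantile normalization and cyclic loess. Of the 34, 32, 32 and 33 stayed past 2-fold, and those that left it were Alpl, Sprr2b and Olfr1299. Only 6 of the 19 higher and 1 of the 15 lower genes had several probe sets, so a rule on probe sets could change no others. Averaging a gene's probe sets gave 28. Among the genes with several, Swsap1, Cox5b, Rpl41, Alpl, Sez6l2 and 1700029P11Rik (0.46) fell under 2-fold with no sign turned. Ighg3 alone stayed past it (1.21). Choosing the brightest probe set on the DKO arrays kept all 34. A DKO mean of at least 1 in place of the WT mean gave 25 of 1184 genes, 21 of them among the 34. The counts followed the limits by construction: 65 genes (35 higher, 30 lower) with a minimum mean of 0.5, 15 (8 and 7) with 2, 71 (39 and 32) with none, 147 (81 and 66) at 1.5-fold, and 14 (10 and 4) without microRNA, small nucleolar RNA, receptor and predicted genes, where 71.4% of the genes past 2-fold were higher against 55.9%. Averaging probe sets also moved Ighm to 0.14, Rpl35 to 0.17 and Vmn1r208 to 0.61. The medians of the 11 lists kept their sign under the 3 scalings and with the probe set brightest in DKO. With averaged probe sets that of translation factors turned (0.01), and without a minimum mean those of cytoskeleton (0.04), microRNA (0.02), splicing (0.08) and translation factor genes (0.01) did. No paired analysis was possible because each group holds 1 array. Signal over background could not be measured, and precision is limited by having 1 array a group.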

Other observations

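The 14-3-3 genes, a family chosen after the values were seen, held 5 of 7 members at a mean of at least 1. These proteins bind phosphorylated partners in signalling and cell-cycle control. Besides Ywhaz, Ywhaq measured 4.06 at d0 and 4.72 at d2, Ywhag 2.53 and 3.01 and Ywhah 2.10 and 2.44, while Ywhae measured 2.23 and 2.08. Ywhab and Sfn, below 1, differed by -0.18 and -0.55. The second bright probe set of Ywhaq differed by 0.64, beside 0.65 for the first, and that of Ywhag by 0.36, beside 0.48. Over all 15 probe sets of the family 8 were higher at d2. In DKO cells Ywhaq differed by 0.50, Ywhag by 0.07, Ywhaz by -0.02 and Ywhah by -0.41.

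Genes of the cornified envelope and hair keratin-associated proteins, also chosen after the values were seen, had 7 members at a mean of at least 1. Sprr2b and Lce1h had the largest differences among them, Flg, which encodes filaggrin, differed by -0.44, and Lce3d by -0.32. The median of the 7 was 0.04, with 4 above 0.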
